A study of Saccharomyces cerevisiae with 22 samples.

Results

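Budding yeast growing in a chemostat with 40 mM 3AT was followed after its sugar was changed to glucose, and the later glucose arrays were set against the earlier ones of the same culture. The comparison uses 5 of the 22 arrays of the series: 3 late glucose arrays at 850, 878 and 937 hours and 2 early glucose arrays at 574 and 592 hours, chosen by the hour in their labels. The array at 937 hours is labelled a glucose steady state, and those at 850 and 878 hours are not. The same culture has an array at 552 hours, the first in glucose, and galactose arrays at 477 and 522 hours. All 8 carry total RNA of Saccharomyces cerevisiae labelled with Cy5, hybridised against 1 common Cy3 reference that mixes galactose and glucose RNA, so each value is a level relative to that reference pool on the log2 scale. The deposited values do not state their logarithm's base, which was taken as 2. Below, the culture is called 3AT40mM. It is set beside a culture without 3AT called no3AT, with late glucose arrays at 478, 507 and 526 hours and early ones at 353 and 385 hours, and beside a second one called no3AT2, with 3 late arrays at glucose steady state and 2 early arrays at 315 and 328 hours. The no3AT2 arrays carry polyA RNA. Strain and genotype are not given in the labels. From what is known of the study, the cells carry HIS3 under the GAL1 promoter. Growth with 40 mM 3AT was sampled from 1 culture, so culture and inhibitor cannot be told apart. Arrays of one culture and phase were treated as replicates, though those with an hour in their labels were taken at different hours. The p-values measure only the spread between such arrays, which may be technical and may include change with time. Unless said otherwise, that spread was pooled over all 22 arrays, those with polyA RNA included.

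3AT (3-amino-1,2,4-triazole) competes with the substrate of His3, the imidazoleglycerol-phosphate dehydratase of histidine synthesis. Yeast short of an amino acid translates the transcription factor Gcn4, which raises the genes of most amino acid pathways, of purine synthesis and of vitamin B6 synthesis at once, a response called general amino acid control. In glucose the GAL genes, whose products bring galactose into glycolysis, are repressed together with SUC2 and the maltose genes. A cell whose HIS3 depends on the GAL1 promoter is thereby deprived of His3 when galactose is replaced.

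The early glucose arrays stood far from the reference pool and the late arrays nearer to it. On the late arrays, 3.06%, 1.85% and 11.2% of genes lay over 2-fold from the pool at 850, 878 and 937 hours, against 27.4% and 16.4% at 574 and 592 hours. The galactose arrays had 4.72% and 2.52%, and the array at 552 hours 1.62%, close to galactose and unlike the early glucose arrays that follow it. Across genes, the array at 850 hours correlated with that at 574 hours at r = 0.74 and with that at 592 hours at 0.72, above its r of 0.49 with 878 hours and 0.37 with 937 hours. The 2 early arrays correlated at 0.80. Galactose at 477 hours and early glucose at 592 hours correlated at -0.37, the lowest value of any pair of these arrays. After the correction for row position described below, these 2 values were 0.77 and -0.079. These correlations share the culture and the reference pool and are a description. Since the arrays differ so much in spread, quantile normalization, which gives every array the same distribution, was one of the alternatives, and its effect is given beside the counts.

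**Figure D1:**
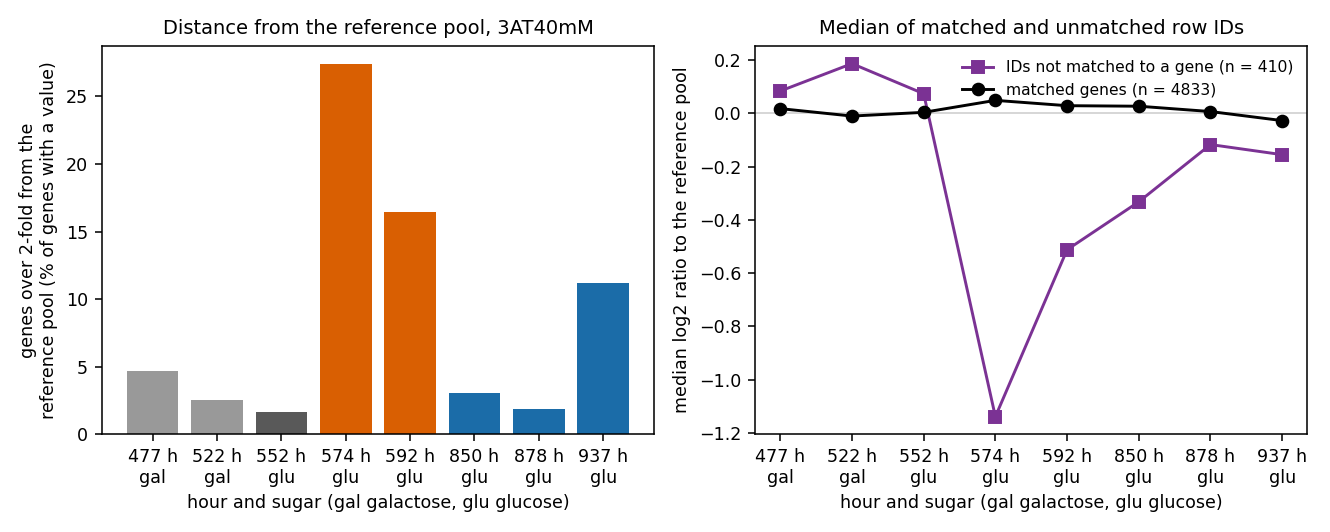
Left, bars give the share of genes over 2-fold from the reference pool on each of the 8 arrays of 3AT40mM in time order, equally spaced (grey galactose, dark grey 552 h, orange early glucose, blue late glucose). The share is highest at 574 h (27.4%) and lowest among glucose arrays at 552 h (1.62%). Right, points give the median log2 ratio of the 410 tested row IDs that match no gene of the R64 annotation and of the 4833 that do. The unmatched IDs stand at -1.14 at 574 h and the matched genes near 0 throughout.

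Of 5243 genes with a value on both early and at least 2 late arrays, 3 passed a Benjamini-Hochberg adjusted p of 0.05 in limma with 1 spread estimated from all 22 arrays, which is 0.0572% of the genes tested: GAL10 rose (0.0191% of genes), and NCE103 and MET6 fell (0.0381%). In all, 787 genes had an unadjusted p under 0.05. With the spread of the 8 arrays of 3AT40mM alone, 451 genes passed as higher and 80 as lower in late glucose, which is 8.6% and 1.53%, or 10.1% together. This count depended on 2 arrays and on the scaling: 1 gene passed without 574 hours, 7 without 878 hours and 2 after quantile normalization, against 509 to 738 without any 1 of the other 3 arrays. In the gene lists described below, the calls with the own spread came to 1 GAL gene without 574 hours, and to 0 in each list after quantile normalization. Without 878 hours they came to 2 GAL genes, 1 lysine gene and 1 purine gene, and to 0 in the other lists. The values also depend on row position: rows 2 apart in the deposited table correlated at 0.19 to 0.58 on the arrays of 3AT40mM. After each value was set against the median of its neighbouring rows (neighbour-corrected), the fit over all 22 arrays called 40 genes (0.763%), 16 higher (0.305%) and 24 lower (0.458%). Of the 531 genes called with the culture's own spread, 35 were among these 40. With 850 and 878 hours as the only late arrays, the neighbour-corrected fit called 2 genes, 1 higher and 1 lower. Neighbour-corrected results given below come from the fit with all 3 late arrays and carry this limit.

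A description that needs no test is whether the 3 late values lie wholly above or below the 2 early ones. They lay above for 1347 genes (25.7%) and below for 583 (11.1%), and these shares are the background for every gene group below. Differences were above 0 for 57.5% and below 0 for 42.5% of the genes tested. Genes higher late made up 69.8% of such genes, against 60.4% in the values as deposited, 59.3% with the chromosome arm's median removed, 56.7% neighbour-corrected and 56.4% after quantile normalization. Row IDs with no gene in the annotation were frequent among them. Of 410 such IDs tested, 231 (56.3%) were higher and 10 (2.44%) lower on every late array, against 1116 (23.1%) and 573 (11.9%) of 4833 matched genes. Their median was -0.33, -0.12 and -0.15 on the late arrays and -1.14 and -0.51 on the early ones, with 0.084 and 0.19 in galactose. Among the 451 genes called higher with the culture's own spread, 131 are such IDs. What sets their level was not tested.

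GAL1, GAL10 and GAL7 had their lowest values on the early glucose arrays. GAL10, the epimerase that recycles UDP-galactose, had -1.30, -0.40 and -0.86 on the late arrays against -3.93 and -3.80 on the early ones. Its late levels lay near the -0.57 and -0.021 of galactose. The change was 3.01 ± 0.42 on the log2 scale (fitted change ± SE, adjusted p = 0.0043, limma), and the adjusted p in limma was 0.290 without 574 hours, 0.0541 without 592 hours and 0.0577 without 878 hours. GAL1, the galactokinase, had -1.68, -1.30 and -0.94 late against -4.26 and -3.17 early. Its change of 2.41 ± 0.66 had an adjusted p of 0.178 in the same limma fit and of 0.0015 with the culture's own spread, and galactose levels were -1.23 and -1.06, inside the late range. GAL7, the uridylyltransferase between them in the pathway, had -1.41, -1.09 and -1.23 late against -4.87 at 574 hours, with no value at 592 hours, and was not tested.

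The other genes of galactose use followed with smaller differences. GAL3, the sensor that binds galactose and frees Gal4 from Gal80, had -0.54, 0.047 and -0.74 late against -1.90 and -2.16 early, a difference of 1.61 ± 0.45 (adjusted p = 0.178, limma). GAL2, the galactose permease, had -1.74, -1.55 and -0.17 late against -1.66 and -2.59 early. The value at 937 hours was the highest of all 8 arrays, galactose included (-1.29 and -1.37), the groups overlapped, and quantile normalization turned the sign of the difference. PGM2, the main phosphoglucomutase, had -0.47, -0.21 and 0.68 late against -1.37 and -0.96 early. Of the 12 genes of the GAL list on the arrays, 8 could be tested. All 8 differences were above 0 with a median of 1.16, against 0.097 over all genes tested. On every late array 7 were higher, beside 25.7% of all genes. Of the 8, 1 passed with the shared spread and 6 with the culture's own, beside 8.6% of all genes that passed as higher with the own spread. KAP104, an importin, lies next to GAL7 on chromosome II and had -0.72, 0.39 and -1.18 late against -2.64 and -2.76 early, with no overlap. The difference of 2.20 ± 0.52 had an adjusted p of 0.13, and of 0.0134 neighbour-corrected. GAL1 and GAL10 overlap the noncoding RNA YNCB0008W, and whether the probes tell strands apart is not stated.

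HIS3 went with the GAL genes and against most of the other HIS genes. It had -0.54, -0.28 and -0.37 on the late arrays against -1.83 and -1.66 on the early ones, with no overlap, and 0.32 and 0.85 in galactose, so the late levels stood between the 2 earlier states. The difference was 1.35 ± 0.42 (adjusted p = 0.178 in limma with the shared spread, 0.0187 with the culture's own). Whether the signal comes from the GAL1-driven copy cannot be read from the array. Of the enzymes that Gcn4 induces, HIS1, the first step, had 1.57, 0.50 and -0.21 late against 2.69 and 2.04 early. HIS4, which holds 3 activities of the pathway, had 0.87, -0.10 and -0.19 late against 1.79 and 1.31 early, and galactose had -0.31 and -0.38. In both the value at 850 hours was the highest of the late ones, and the late range lay wholly below the early one.

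HIS1 differed by -1.75 ± 0.55 (adjusted p = 0.178, limma) and HIS4 by -1.36 ± 0.43 (adjusted p = 0.178, limma, and 0.0215 neighbour-corrected). HIS7, the glutamine amidotransferase and cyclase, had -0.057, 0.012 and -0.31 late against 0.97 and 0.57 early and a difference of -0.89 ± 0.31. HIS5, the aminotransferase, had 0.61, 0.11 and -0.41 late against 0.52 and 1.35 early, which overlap. HIS6, the isomerase, was the other gene of the pathway that was higher late, with -0.12, -0.14 and -0.23 against -1.13 and -1.17 early and 1.42 and 0.74 in galactose. HIS2, the phosphatase, had 1.13 and 1.22 early and no value on the late arrays. Of the 6 tested, 4 had a difference below 0 and 2 above. With the culture's own spread 3 passed as lower (HIS1, HIS4 and HIS7) and 2 as higher (HIS3 and HIS6), beside 1.53% and 8.6% of all genes.

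**Figure D2:**
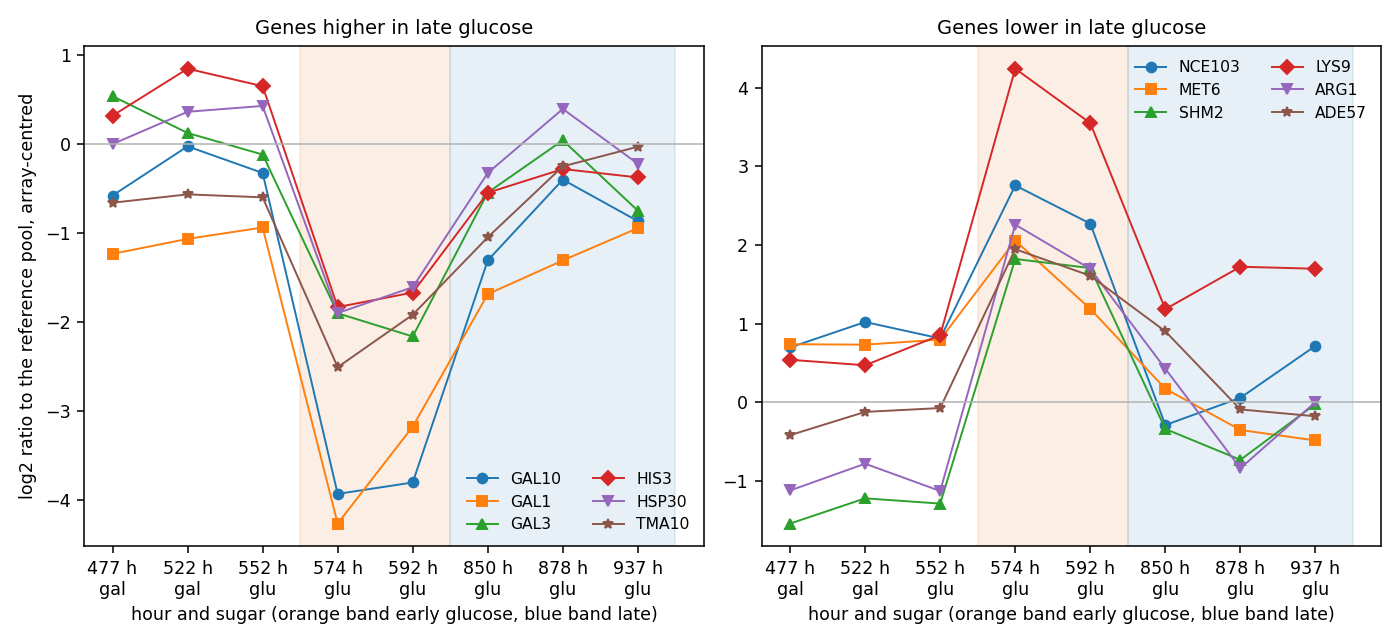
Log2 ratio to the reference pool, centred on each array, of 6 genes that were higher and 6 that were lower in late glucose, on the 8 arrays of 3AT40mM in time order, equally spaced. The orange band marks the early and the blue band the late glucose arrays. GAL10 stands at -0.40 to -1.30 late and at -3.93 and -3.80 early, and LYS9 stays above 1 late after 4.24 and 3.55 early.

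In the lists of amino acid synthesis outside histidine, most genes had a difference below 0, to a depth that differed between pathways. For arginine, ARG1, the argininosuccinate synthetase, had 0.43, -0.84 and 0.004 late against 2.26 and 1.70 early and -1.12 and -0.78 in galactose, so 850 hours was still above galactose by more than 1 log2 unit. ARG4, the lyase after ARG1, had 1.08, 0.17 and 0.038 late against 2.07 and 1.67 early. In both the late arrays lay below the early ones without overlap. Of 9 genes on the arrays 7 were tested, 6 had a difference below 0 and the median was -1.23. With the culture's own spread 4 passed as lower, beside 1.53% of all genes.

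The lysine pathway kept a raised level. LYS9, the saccharopine dehydrogenase that forms saccharopine, had the highest early values of the genes described here, 4.24 and 3.55, and 1.19, 1.73 and 1.70 late, still above the 0.54 and 0.47 of galactose. The difference of -2.36 ± 0.54 had an adjusted p of 0.106 in limma and of 0.0215 neighbour-corrected. LYS1, which releases lysine from saccharopine, had 1.10, 1.14 and 1.28 late, 2.51 and 2.69 early and 0.036 and 0.079 in galactose. LYS21, a homocitrate synthase, had 1.30, 1.18 and 0.94 late against 2.17 and 1.74 early. Over the 9 tested genes the median level was 0.90, 0.83 and 0.84 late, 1.98 and 1.22 early and 0.17 and 0.078 in galactose. ARO8, an aminotransferase of aromatic amino acids that also serves lysine synthesis, had 0.52, 0.69 and 0.84 late against 2.77 and 2.07 early, a difference of -1.74 ± 0.34 (adjusted p = 0.0589, limma, 0.0177 neighbour-corrected).

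All 11 genes of branched-chain amino acid synthesis had a difference below 0, with a median of -0.99, and 9 lay lower on every late array, beside 11.1% of all genes. ILV5, the reductoisomerase shared by valine and isoleucine, had 0.12, -1.23 and 0.78 late against 1.31 and 1.49 early, with the lowest value at 878 hours. LEU4, an isopropylmalate synthase, had 0.26, -0.50 and -0.30 late against 1.45 and 0.94 early. BAT2, the cytosolic branched-chain aminotransferase, had 0.42, 0.73 and 1.11 late against 1.65 and 1.98 early and stayed above its galactose levels of -0.24 and -0.41. With the culture's own spread 5 of the 11 passed as lower, beside 1.53% of all genes. Among aromatic amino acid genes 10 of 11 tested were below 0 with a median of -0.63 (-0.34 without 574 hours), and 6 lay lower on every late array. With the own spread 1 passed as lower, beside 1.53% of all genes. It was TRP2, the anthranilate synthase (0.34, 0.62 and 0.43 late, 2.08 and 1.25 early). TRP1 was the exception, with -0.38, 0.16 and -0.33 late against -1.43 and -0.71 early.

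In sulfur metabolism, MET6, the methionine synthase, fell by 1.84 in log2 units (limma SE 0.35 and adjusted p = 0.0493), with 0.17, -0.35 and -0.48 late against 2.06 and 1.19 early and 0.74 and 0.73 in galactose. Its late levels were thus below those of galactose as well as of early glucose. The adjusted p was between 0.0503 and 0.999 without any 1 of the 5 arrays. SAM2, an S-adenosylmethionine synthetase, had 0.25, 0.39 and 0.22 late against 1.95 and 1.23 early, and its near copy SAM1 0.045, 0.12 and 1.76 against 2.53 and 1.51, where 937 hours overlapped the early arrays. Probes may not tell the pair apart. Over the 20 genes tested 12 were below 0, the median was -0.19, 8 lay lower and 4 higher on every late array (11.1% and 25.7% of all genes), and with the own spread 3 passed as lower and 2 as higher, beside 1.53% and 8.6% of all genes. The median was between -0.40 and -0.21 when any 1 of the 5 arrays was left out.

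SNZ1, which encodes the vitamin B6 synthase, had 1.29, 0.43 and 0.41 late against 2.21 and 2.29 early. SNO1, its glutaminase, had 0.52, 0.43 and 1.13 late against 1.90 and 2.16 early. Both pairs of groups were apart, and galactose levels were far lower, -1.45 and -1.27 for SNZ1 and -0.74 and -0.87 for SNO1. SNO1 had an adjusted p of 0.178 in limma and of 0.0138 neighbour-corrected. Of the 6 SNZ and SNO genes, 4 were below 0 and 2 passed as lower with the own spread, beside 1.53% of all genes. SNZ2, SNZ3 and their SNO partners are close copies whose probes may share signal.

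**Figure D3:**
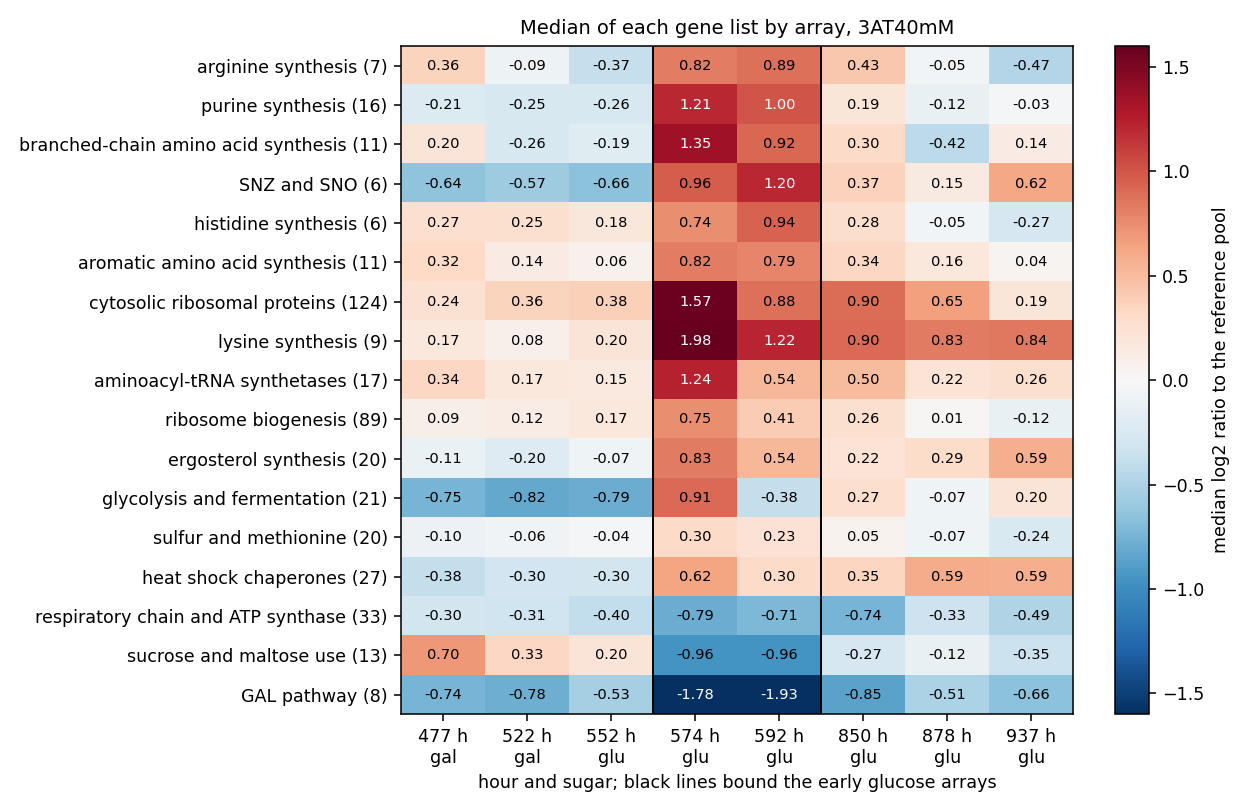
Median log2 ratio to the reference pool of the tested members of each gene list (number in brackets) on the 8 arrays of 3AT40mM in time order. Red is above and blue below the pool. The lysine list keeps 0.83 to 0.90 on the late arrays, and the purine list lies between -0.12 and 0.19 late after 1.21 and 1.00 early.

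Purine synthesis genes were lower in late glucose with few exceptions. Over the 16 tested genes the median level was 0.19, -0.12 and -0.032 late against 1.21 and 1.00 early, with -0.21 and -0.25 in galactose. The median difference was -1.01, 15 were below 0 and 12 lay lower on every late array (background 11.1%). With the own spread 9 passed as lower, beside 1.53% of all genes. Neighbour-corrected with the shared spread, 4 of the list did, beside 0.458% of all genes. ADE57, the bifunctional enzyme named ADE5,7, had 0.90, -0.089 and -0.18 late against 1.95 and 1.61 early. ADE12, the adenylosuccinate synthase, had 0.21, -0.30 and 0.44 late against 1.50 and 1.68 early. ADE13, the lyase that follows it on the way to AMP, had -0.25, -0.51 and 0.07 late against 1.58 and 0.91 early. All 3 were apart between the groups, by -1.57 ± 0.36, -1.47 ± 0.34 and -1.47 ± 0.32. SHM2, the cytosolic serine hydroxymethyltransferase that supplies 1-carbon units, had -0.34, -0.73 and -0.02 late against 1.82 and 1.71 early and -1.54 and -1.22 in galactose. Its difference of -2.13 ± 0.45 had an adjusted p of 0.0921 in limma and 0.0333 neighbour-corrected.

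Some of the largest decreases lay outside these pathways. NCE103, the carbonic anhydrase that supplies bicarbonate to carboxylating enzymes, fell by 2.35 in log2 units (limma SE 0.38 and adjusted p = 0.0081). It had -0.29, 0.059 and 0.72 late against 2.76 and 2.27 early and 0.70 and 1.02 in galactose. The adjusted p was 0.839 without 574 hours and 0.0537 to 0.0707 without 592, 850 or 878 hours. ZRT1, the high-affinity zinc transporter, had -2.45, -1.98 and -2.43 late against 0.76 and -0.33 early and -3.95 and -3.55 in galactose, so glucose at both times stood above galactose. The difference was -2.50 ± 0.50 (adjusted p = 0.0618, limma, 0.0215 neighbour-corrected). YHI9, a gene of unknown role, had 0.15, -0.088 and -0.60 late against 1.07 and 1.79 early.

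Most genes of translation had a difference below 0. With the shared spread none of the ribosomal protein, ribosome biogenesis and tRNA synthetase genes was called. Of 124, 89 and 17 tested, 13, 11 and 3 were lower at an unadjusted p under 0.05 in limma, beside 158 of all 5243 genes. The 124 tested cytosolic ribosomal protein genes had a median level of 0.90, 0.65 and 0.19 late against 1.57 and 0.88 early, and 0.24 and 0.36 in galactose. The median at 850 hours was close to that at 592 hours, and the level at 574 hours stood apart from all others. The median difference was -0.59, with 115 below 0, 37 lower and 0 higher on every late array, and 7 passing as lower with the own spread, or 0 without 574 hours. Of all genes, 11.1% lay lower and 25.7% higher on every late array, and 1.53% passed as lower with the own spread. The median difference of the ribosomal protein genes was -0.27 without 574 hours and -0.92 without 592 hours. RPL27A had 0.82, 0.32 and 0.34 late against 2.08 and 1.41 early, and RPS3 0.78, 0.013 and 0.51 against 2.05 and 1.29. RPS30A went the other way, with -0.42, 0.81 and 0.89 late against -1.74 and -0.017 early, where 850 hours overlapped. Many of these genes have a near-identical copy and their probes may be shared.

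Ribosome biogenesis genes had a median level of 0.26, 0.014 and -0.12 late against 0.75 and 0.41 early. Of 89 tested 72 were below 0, 28 lay lower and 8 higher on every late array, and with the own spread 4 passed as lower and 1 as higher, or 0 each without 574 hours. Of all genes, 11.1% lay lower and 25.7% higher on every late array, and 1.53% passed as lower and 8.6% as higher with the own spread. The list's median difference of -0.37 was -0.21 without 574 hours and -0.59 without 592 hours. NSR1, the yeast nucleolin, had 0.67, -0.15 and -0.021 late against 1.86 and 1.25 early, and CBF5, the pseudouridine synthase of snoRNPs, 0.41, -0.22 and -0.11 against 1.77 and 1.02. Both sets were apart, by -1.39 ± 0.36 and -1.37 ± 0.41. Of 17 aminoacyl-tRNA synthetase genes 16 were below 0 with a median of -0.55, which was -0.052 without 574 hours and -0.87 without 592 hours. YHR020W, a prolyl-tRNA synthetase, had 0.50, 0.035 and 0.27 late against 1.91 and 1.12 early. It was the 1 of 17 that passed as lower with the own spread, beside 1.53% of all genes.

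Most sucrose and maltose genes, which glucose represses, had a difference above 0. SUC2, the invertase, had -0.34, -0.088 and -0.35 late against -1.55 and -1.68 early and 0.90 and 0.33 in galactose. The difference was 1.36 ± 0.35 (adjusted p = 0.17, limma) and 0.68 neighbour-corrected. The isomaltase gene IMA1 had -0.04, 0.29 and -0.27 late against -1.03 and -1.14 early. Of 13 tested 12 were above 0, 11 lay higher on every late array, beside 25.7% of all genes, and 5 passed with the own spread, beside 8.6% of all genes. None of the 13 passed with the own spread neighbour-corrected. The median difference was 0.91, and 0.48 neighbour-corrected. MAL and IMA genes are near-identical copies at chromosome ends.

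Glycolytic genes had a median difference of -0.22, which was 0.41 without 574 hours, and the 2 early arrays differed. Their median level was 0.27, -0.07 and 0.20 late, 0.91 and -0.38 early and -0.75 and -0.82 in galactose, so the array at 574 hours stood alone. Of 21 tested, 15 were below 0 and none passed with either spread, while 1 had an unadjusted p under 0.05 in limma. On every late array 1 of the 21 lay lower, a share below the 11.1% of all genes. PDC5, a pyruvate decarboxylase with close copies PDC1 and PDC6, had 0.80, -0.17 and 0.064 late against 1.97 and 0.78 early. Respiratory chain and ATP synthase genes lay below the pool by their median on these 5 arrays, at -0.74, -0.33 and -0.49 late against -0.79 and -0.71 early. With the own spread 1 of 33 passed as higher, a share below the 8.6% of all genes. It was STF2, which stabilises an ATP synthase inhibitor complex, with -0.76, -0.22 and -0.89 late against -2.10 and -1.37 early.

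Heat shock genes were not of one kind. Their median level was 0.35, 0.59 and 0.59 late, 0.62 and 0.30 early and -0.38 and -0.30 in galactose, so glucose arrays of both times stood above galactose. HSP30, a plasma membrane protein, had -0.32, 0.40 and -0.22 late against -1.90 and -1.60 early. HSP26, a small chaperone, had -0.90, -0.14 and -0.62 late against -2.08 and -1.90 early, and HSP12, a membrane-associated stress protein, -1.87, -1.47 and -1.76 against -3.30 and -2.44. These 3 lay higher on every late array and passed with the own spread, as did SSB1, a ribosome-associated chaperone (-0.42, -0.14 and -0.16 late, -1.39 and -1.21 early). Over 27 tested, 7 lay higher on every late array, beside 25.7% of all genes, 4 passed with the own spread, beside 8.6%, 18 were above 0 and the median difference was 0.18. For HSP12 quantile normalization turned the sign.

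Ergosterol genes had a median of 0.22, 0.29 and 0.59 late against 0.83 and 0.54 early, and 937 hours was as high as 592 hours. ERG1, the squalene epoxidase, had 0.30, 0.29 and -0.05 late against 1.91 and 0.88 early and ERG3, the C-5 desaturase, 0.18, 0.19 and 0.56 against 1.42 and 1.35. These were the 2 of 20 that passed as lower with the own spread, beside 1.53% of all genes. The remaining largest increases were of genes with little known role or of IDs without an annotated gene. TMA10, whose product is found with ribosomes, had -1.04, -0.25 and -0.026 late against -2.50 and -1.91 early. YDL218W had -0.75, 0.40 and -0.85 against -2.29 and -1.99, and MLG1 -0.85, 0.78 and -1.01 against -2.27 and -1.86. The unannotated YDR445C, YDL071C, YDR401W and YJL211C had late values between -0.79 and 0.41 and early values between -2.37 and -1.60.

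**Figure D4:**
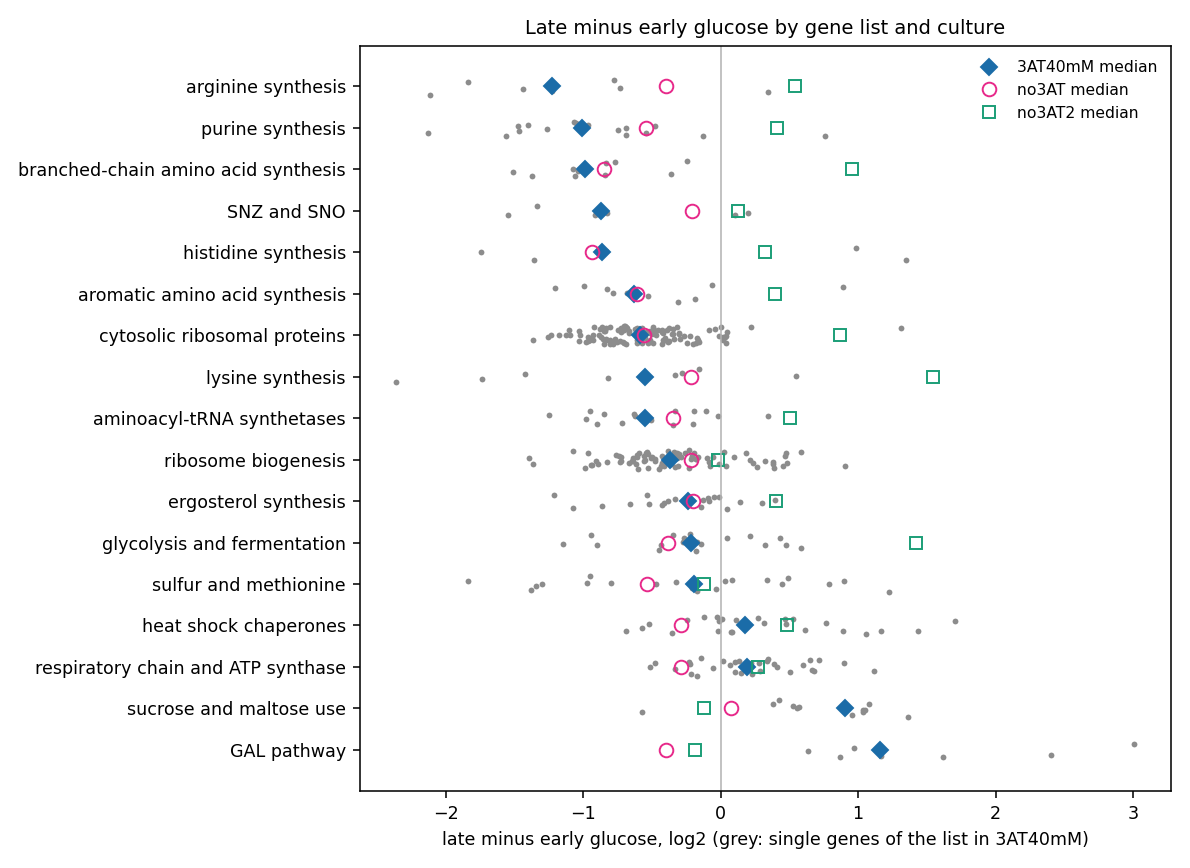
Late minus early glucose on the log2 scale. Grey points are the single tested genes of each list in 3AT40mM, diamonds the list's median there, open circles its median in no3AT and open squares in no3AT2. The histidine, arginine, lysine, branched-chain, aromatic, purine and ribosomal protein lists have their median below 0 in 3AT40mM and no3AT, and above 0 in no3AT2. Over all genes tested the median is 0.097 in 3AT40mM, -0.14 in no3AT and -0.038 in no3AT2.

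The same contrast was run in the cultures without 3AT, over unlike spans of time. The last early and first late arrays were at 592 and 850 hours in 3AT40mM and at 385 and 478 hours in no3AT. The late arrays of no3AT2 have no hour in their labels. Time between the arrays thus cannot be told apart from culture and inhibitor in the comparisons of cultures. In no3AT 1 of 5475 genes passed (0.0183%), and the count depended on single arrays: 1327 genes passed without 385 hours and none without 478 or 526 hours, where 270 and 312 had an unadjusted p under 0.05 in limma. In no3AT2 51 of 4248 passed (1.2%), 44 higher (1.04%) and 7 lower (0.165%), with 3 to 106 when any 1 of its 5 arrays was left out. Across genes the difference in 3AT40mM correlated with that in no3AT at r = 0.125 over 4815 genes, and with that in no3AT2 at -0.33 over 3927. Neighbour-corrected, the 2 values were 0.17 and -0.35. The cultures share the reference pool and the order of rows, and these correlations are a description. GAL1 had no test in no3AT and a change of -0.66 in no3AT2. GAL10 had too few values in both. The median difference of the tested GAL list was 1.16 in 3AT40mM. It was -0.395 in no3AT, with 4 of 5 tested genes below 0, and -0.188 in no3AT2, with 3 of 5.

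Beside no3AT, 4 genes had a different change (0.0831% of 4815, limma interaction): HSP30, HSP12, YBR206W and SWC3, with an adjusted p of 0.0342 each. The late minus early difference of HSP30 was 1.70 in 3AT40mM and -1.35 in no3AT, and that of HSP12 1.17 in 3AT40mM and -2.17 in no3AT. None of the 4 passed neighbour-corrected, where 590 genes had an unadjusted p under 0.05 in limma, and none passed without any 1 array of 3AT40mM or without 478 hours of no3AT. The count was 152 without 353 hours, 575 without 385 hours and 8 without 507 hours of no3AT. HIS3 differed in sign, 1.35 in 3AT40mM and -1.42 in no3AT, with an adjusted p of 0.0837 for the difference in limma. For the amino acid lists the medians were of one sign: -0.86 in 3AT40mM and -0.94 in no3AT for histidine, and -0.99 and -0.85 for branched-chain. They were -1.23 and -0.40 for arginine, -0.55 and -0.21 for lysine, and -0.63 and -0.61 for aromatic genes. Purines had -1.01 and -0.55, and ribosomal proteins -0.59 and -0.56. Over all genes tested the median was 0.097 in 3AT40mM and -0.14 in no3AT, where 2979 of 4815 genes were below 0. A median below 0 in no3AT is thus not particular to these lists.

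Beside no3AT2, 189 of 3927 genes had a different change (4.81%), 101 higher (2.57%) and 88 lower (2.24%) in 3AT40mM. The RNA fraction differs too, so culture, inhibitor, RNA fraction and time between the arrays cannot be told apart. LYS9 had -2.36 in 3AT40mM and 2.77 in no3AT2 as late minus early differences, which are apart by -5.13 ± 0.75 (SE, adjusted p = 0.00195, limma). LEU4 had -1.38 in 3AT40mM and 1.67 in no3AT2, with an adjusted p of 0.0264 in limma. By list, 5 of 9 lysine genes, 4 of 10 branched-chain genes, 3 of 10 purine genes, 2 of 6 arginine genes and 16 of 119 ribosomal protein genes had a change called lower in 3AT40mM, against 2.24% of all genes. None of these lists had a gene called higher. Aromatic genes had 1 of 11 called higher and 0 lower, and sulfur genes 1 higher and 2 lower of 14. Lower calls also fell in lists outside these pathways. The cell wall and heat shock lists had 3 of 25 each and the TCA cycle list 2 of 19, with 0 called higher. The count of 189 was 1 without 574 hours, 110 without 592 hours, 3 without 878 hours and 6 without 937 hours of 3AT40mM. It was 3 without 315 hours, 103 without 328 hours, and 6 and 86 without the first and the last steady-state array of no3AT2. NCE103 was below 0 in each culture, with -2.35 in 3AT40mM, -0.11 in no3AT and -0.51 in no3AT2.

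**Figure D5:**
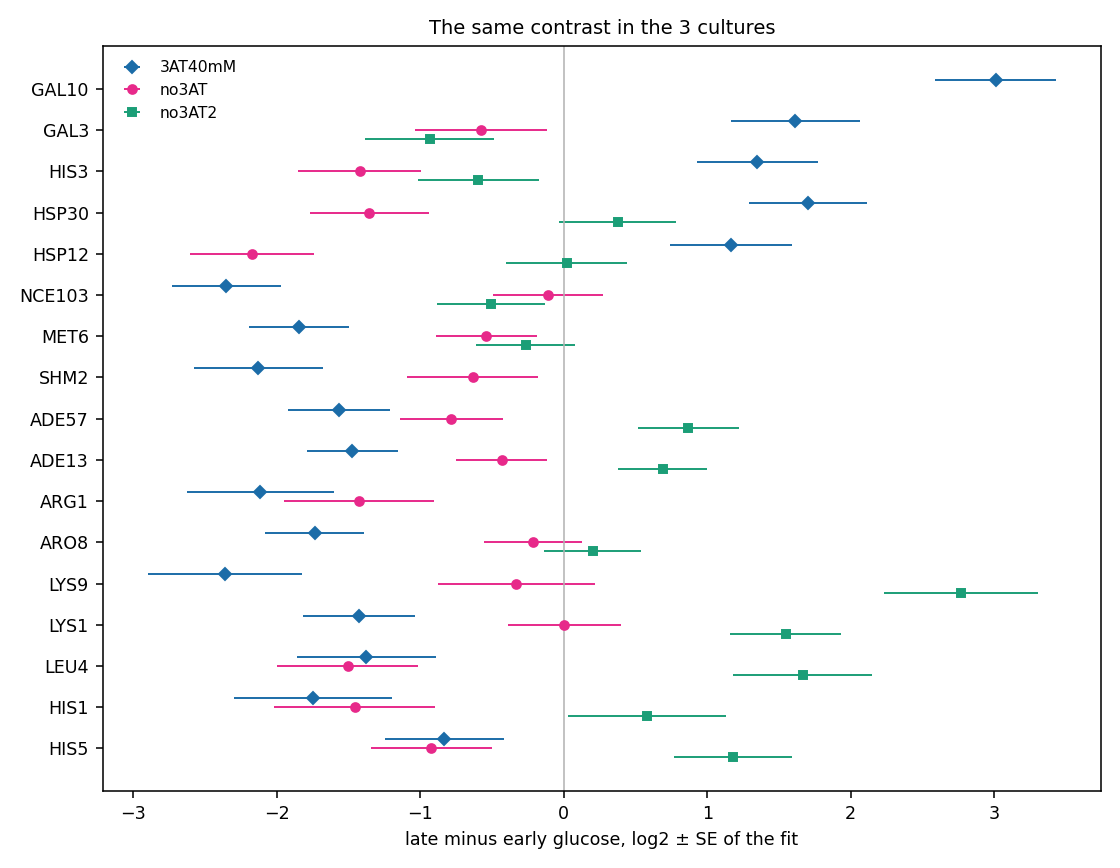
Late minus early glucose on the log2 scale with the SE of the limma fit, for genes described in the text, in 3AT40mM (diamonds), no3AT (circles) and no3AT2 (squares). A missing symbol means too few values. LYS9 lies at -2.36 in 3AT40mM and at 2.77 in no3AT2, and NCE103 is below 0 in all 3 cultures.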

How the data were processed

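The deposited table holds 1 column per array and 6281 rows, as log2 ratios of sample (Cy5) over reference pool (Cy3) by the dyes in the labels. How the authors scanned, background-corrected and normalized the arrays to make these deposited log2 values is not given in the sources used here, nor is the log base, taken as 2. The values were checked to be signed and to lie around 0, with array medians of -0.15 to 0.072. No intensities were used, so depth and signal over background are unknown and the number of arrays limits the precision. Row IDs were matched to a RefSeq table of the R64 assembly: 5763 had a gene there (57 through a synonym) and 518 had none. The 76 rows that share a gene were averaged, which left 6242 genes. An array lacked 138 to 1587 rows. No coordinates are given because the labels name no build for the arrays.

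Each array was centred on its median. The 22 arrays were fitted as 11 groups of culture and phase in limma 3.58.1 (R 4.3.3) with lmFit and eBayes (11 residual degrees of freedom), as contrasts of group means and an interaction between cultures, two-sided, with Benjamini-Hochberg adjustment over all genes tested and a threshold of 0.05. Fitted changes carry the SE of the fit. Genes with a value on both early and at least 2 late arrays of the culture were tested. A second fit took the spread from the 8 arrays of 3AT40mM alone (4 residual degrees of freedom). Neighbour-corrected values are relative to a local median, taken over 10 rows before and 10 after in steps of 2 in the deposited order. Other alternatives were uncentred values, quantile normalization, filters on missing values, the first row of a gene, robust and trended moderation, other sets of arrays for the spread, the chromosome arm's median, a 2-fold minimum, other definitions of late and early, and leaving out each array. The fits were run on simulated data with independent noise, which for each gene had the same spread on every array. Dependence on row position and unequal spread of arrays were not simulated, so their effect on the counts was not tested there.

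The comparison, the members, the 42 gene lists (17 of them described in the results, the others below) and the alternatives were chosen with earlier results of these data known. The genes to name were set by rule: 12 called genes in each direction, by size, with 5 values and no overlap between groups (completed from genes with an unadjusted p under 0.05), HIS1 to HIS7, GAL1, GAL2, GAL7 and GAL10, in each list described up to 4 members by absolute change, and at most 5 differences from no3AT each way. The text describes most of those in the 17 lists, and 1 of them is not reported here. Genes outside this rule are said to be chosen after their values were seen. No sequence is shown because none was given.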

Additional observations from a re-analysis of the deposited data

Results flagged for a closer look

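For genes taken by the naming rule from the largest changes and the 17 lists of the results, and not for all 189 genes called beside no3AT2, changes that differed between cultures by a limma interaction test are given here. Each value is the difference of late minus early glucose in 3AT40mM minus the same in the other culture, on the log2 scale, with an adjusted p at or below 0.05. No cause was tested.

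Beside no3AT, the difference was 3.06 for HSP30, 3.34 for HSP12, 3.22 for YBR206W and 3.22 for SWC3, a subunit of the SWR1 chromatin remodeller. The late minus early difference of SWC3 was 0.50 in 3AT40mM and -2.73 in no3AT.

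Beside no3AT2, several genes of amino acid synthesis had a lower change in 3AT40mM. The difference was -5.13 for LYS9, -2.97 for LYS1 and -2.75 for LYS21. It was -3.04 for LEU4 and -2.18 for LEU9, another isopropylmalate synthase. For ARG4 it was -1.68, for ARO8 -1.94 and for HIS5 -2.02. Sulfur genes had -2.82 for MET32, a regulator of methionine genes, and -2.56 for SAM2. Purine genes had -2.44 for ADE57 and -2.16 for ADE13, and NCE103 had -1.85. In all of these but NCE103 the change in 3AT40mM was below 0 and that in no3AT2 above 0.

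Genes of translation and fermentation also had a lower change, with -2.05 for RPL27A, -1.78 for NSR1, -2.09 for NOP58, a snoRNP protein, and -2.33 for KRS1, the lysyl-tRNA synthetase. PDC1 had -3.33 and its close copy PDC6 -3.21. A higher change in 3AT40mM was found for GAL3 with 2.55, TRP1 with 1.75, and the unannotated YDR445C with 2.24 and YJL211C with 2.24.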

How the results depend on the processing

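The counts of called genes moved with many alternatives, and the cause was not tested. Late against early glucose in 3AT40mM gave 3 genes in limma, against 7 as deposited, 7 after quantile normalization, 6 with 1 early and 1 late value enough, 531 with the culture's own spread, 40 neighbour-corrected, and 0 with 937 hours as the only late array or with 552 hours counted as early. Leaving out an array gave 0 to 2. With the own spread, 531 became 2 after quantile normalization, 200 neighbour-corrected, and 1 to 738 without an array (added after seeing the data). In no3AT, 1 gene became 0 after quantile normalization, with complete values, with total RNA glucose arrays alone, with the own spread, neighbour-corrected and by chromosome arm, 2 with the first row of a gene, and 0 to 1327 without an array. In no3AT2, 51 became 230 with the own spread, 140 neighbour-corrected and 3 to 106 without an array. The difference from no3AT, 4 genes, became 0 as deposited, with trended moderation, with total RNA glucose arrays alone, neighbour-corrected, by arm, and with other late or early arrays, and 0 to 575 without an array. The difference from no3AT2, 189 genes, became 61 after quantile normalization, 827 with the spread of the cultures compared, 442 neighbour-corrected, 6 with 850 and 878 hours alone, 0 with 937 hours alone, 1 with 552 hours as early, and 1 to 155 without an array. At each count of 0, from 99 to 678 genes had an unadjusted p under 0.05 in limma.

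Among single genes, 13 of the values changed sign. Quantile normalization gave -0.16 for GAL2, -0.061 for COX5B, a cytochrome oxidase subunit, -0.24 for HSP12 and -0.19 for SWC3. GLK1, a glucokinase that overlaps YCL042W, had -0.088 neighbour-corrected, -0.068 by arm, -0.083 with 850 and 878 hours and -0.097 with 937 hours neighbour-corrected. SWC3 had -0.071, -0.072, -0.020 and -0.17 under the same settings, and COX5B -0.038 under the last. Medians of 15 of the 17 lists described kept their sign in all 23 settings, with exceptions for glycolysis (552 hours as early, and without 574 hours) and the respiratory chain (quantile normalization). No paired analysis was possible because the replicate numbers of late and early arrays mark different hours of one culture.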

Other observations

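Of 56 mitochondrial ribosomal protein genes tested, 19 lay higher and 3 lower on every late array (background 25.7% and 11.1%), 6 passed as higher with the culture's own spread (8.6% of all genes did), and the median difference was 0.25. MRPS5, of the small subunit, had -0.31, -0.17 and -0.50 late against -1.32 and -1.78 early. General stress genes had a median level of -0.33, -0.079 and 0.085 late against -0.50 and -0.48 early, with 26 of 31 above 0, and trehalose and glycogen genes 0.063, -0.055 and 0.074 against -0.55 and -0.28, with 10 of 12 above 0. TPS2, the trehalose-6-phosphate phosphatase, had -0.43, -0.57 and -0.60 late against -1.71 and -1.85 early. FBP1, the fructose bisphosphatase of gluconeogenesis, had -0.22, -0.15 and 1.16 late against -1.80 and -0.65 early, while the 16 genes of gluconeogenesis and C2 use had a median difference of 0.20. FLO11, a flocculin of the cell surface, had -0.57, -0.31 and -0.32 late against -1.95 and -1.47 early, and HNM1, the choline transporter, 0.74, -0.19 and -0.69 against 1.50 and 1.23.

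Lists with a median difference below 0 were translation factors (-0.26, 25 of 33 below 0), the proteasome (-0.27, 25 of 33), amino acid permeases (-0.26, 11 of 16), histones (-0.34, 7 of 8), cell wall (-0.19, 21 of 30), inositol and phospholipid synthesis (-0.17, 14 of 23), the TCA cycle (-0.14, 14 of 22), nitrogen catabolite genes (-0.16, 14 of 26) and the iron regulon (-0.062, 15 of 26). Medians above 0 were found for hexose transporters (0.23), oxidant defence (0.21), pheromone response (0.18), sporulation (0.15), G2, M and M/G1 phase (0.088), multidrug resistance (0.08), RNA polymerases I and III (0.079), G1 and S phase (0.071), peroxisome and fatty acid oxidation (0.029), the phosphate regulon (0.005), and the genes of a mating type (0.44) and alpha mating type (0.45).

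The glycine, zinc and proton pump genes that follow were chosen after their values were seen and carry no test here. Beside SHM2, the glycine cleavage genes had -0.30, -0.43 and -0.75 late against 0.90 and 1.02 early for GCV1 and 0.68, -0.007 and -0.36 against 1.66 and 1.58 for GCV2. GCV3, the third protein of that complex, had -0.35, 0.30 and -0.086 late against 0.35 and 0.24 early, where the groups overlap. Beside ZRT1, the low-affinity zinc transporter gene ZRT2 had -0.15 and 1.16 on the late arrays at 878 and 937 hours against 0.69 and 0.49 early and -0.97 and -1.12 in galactose, and the zinc activator gene ZAP1 -0.52, -0.15 and -0.002 late against -0.31 and -0.39 early. PMA1, the proton pump of the plasma membrane, had 0.16, -0.89 and -0.26 late against 1.90 and 0.17 early, and its copy PMA2 -0.78 and -1.10 at 878 and 937 hours against 1.22 and 0.0015 early.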
